A study of Mus musculus with 6 samples.

Results

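The LIM homeodomain genes of motor neurons measured here were Isl1, Isl2, Lhx1, Lhx3 and Lhx4. They were chosen by name, with every probe of each gene taken on every array. The array carried 1 matched probe for each of the 5, so the members are 5 probes of 55681 and 5 genes of the 19897 that had a matched probe. The study profiled mouse spinal cord cells at embryonic day E12.5 on Agilent one-colour expression arrays, 6 arrays in all. Spinal cords were freshly dissected and trypsinized, and cells were sorted by fluorescence on a green fluorescent protein (GFP) transgene into a GFP-on fraction, labelled as motor neurons, and a GFP-off fraction, labelled as non-motor neurons. The genotypes were labelled mir-17~92 -/- ; Hb9::GFP and WT ; Hb9::GFP, and every embryo of both genotypes carried the Hb9::GFP transgene. There were 2 GFP-on arrays and 1 GFP-off array for each genotype. The first genotype is called mutant-labelled below and the second WT-labelled.

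The GFP-on fraction is defined by the activity of the Hb9 (Mnx1) promoter and holds whatever cells that transgene marks, and the GFP-off fraction holds all the other cells of the cord. The sex of the embryos was not determined, and the labels do not say whether a sample came from 1 embryo or from several. Nothing in the labels says that replicates came from separate embryos or sorts, so p-values measure only the spread between these samples, which may be technical. The descriptions give GFP-on replicate 1 and the GFP-off array of each genotype the same tag, and the labels do not explain it. In such bulk samples, fewer cells of a type and less RNA per cell cannot be told apart.

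LIM homeodomain proteins are transcription factors with a pair of LIM domains, which bind partner proteins, and a homeodomain, which binds DNA. In the ventral spinal cord Isl1 and Lhx3 join the adaptor Ldb1 in a complex that drives motor neuron identity, while Lhx3 with Ldb1 alone is known for the neighbouring V2 interneurons. Isl2 shares much of the work of Isl1 in newly born motor neurons, Lhx4 that of Lhx3. Later, most motor neurons lose Lhx3 and Lhx4, those of the medial motor column keep them, and Lhx1 marks motor neurons that send axons to dorsal limb muscle. Isl1 is also made by dorsal dI3 interneurons and sensory neurons, and Lhx1 by several classes of inhibitory interneuron.

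The deleted locus, mir-17~92, makes 6 microRNAs from a single transcript. A microRNA pairs with its targets mainly through the seed, bases 2 to 8 of the mature strand, given in capitals. The sequences are shown because they are what the genotype label removes, and no target of any of them was sought. They are the mouse RefSeq entries.
miR-17-5p: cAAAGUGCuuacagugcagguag
miR-20a-5p: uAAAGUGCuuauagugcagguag
miR-18a-5p: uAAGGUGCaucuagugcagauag
miR-19a-3p: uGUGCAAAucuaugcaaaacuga
miR-19b-3p: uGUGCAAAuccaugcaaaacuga
miR-92a-3p: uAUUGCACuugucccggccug
The 6 carried 4 different seeds. The seed was the same in miR-17-5p and miR-20a-5p, and the same in miR-19a-3p and miR-19b-3p.

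The 250 bases before a RefSeq transcription start (GRCm38.p6) are printed for the members that differed between groups. These were Isl1 and Isl2 between the genotype labels and Lhx3 and Lhx4 between the sorted fractions. Each window is given 5′ to 3′ on the strand of its gene. The Isl1 window is chr13:116309689-116309938 on the minus strand, that of Isl2 chr9:55540899-55541148 on the plus strand, that of Lhx3 chr2:26208250-26208499 on the minus strand (the first of its 2 starts) and that of Lhx4 chr1:155742028-155742277 on the minus strand. For Isl2 and Lhx4 the annotated gene reaches further upstream than the start used, to chr9:55538677 and chr1:155751726. Sequence before those ends was not searched. Capitals mark the motif TGACGT, sought on both strands.
Isl1: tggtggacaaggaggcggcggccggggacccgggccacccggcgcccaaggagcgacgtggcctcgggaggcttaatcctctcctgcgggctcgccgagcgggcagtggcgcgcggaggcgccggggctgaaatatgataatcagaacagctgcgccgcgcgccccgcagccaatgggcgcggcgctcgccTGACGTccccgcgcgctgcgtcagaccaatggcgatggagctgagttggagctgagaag
Isl2: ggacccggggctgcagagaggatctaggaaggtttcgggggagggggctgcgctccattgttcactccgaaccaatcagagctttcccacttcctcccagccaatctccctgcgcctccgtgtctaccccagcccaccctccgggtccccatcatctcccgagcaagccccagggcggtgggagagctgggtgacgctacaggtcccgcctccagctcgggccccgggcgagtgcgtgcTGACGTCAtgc
Lhx3: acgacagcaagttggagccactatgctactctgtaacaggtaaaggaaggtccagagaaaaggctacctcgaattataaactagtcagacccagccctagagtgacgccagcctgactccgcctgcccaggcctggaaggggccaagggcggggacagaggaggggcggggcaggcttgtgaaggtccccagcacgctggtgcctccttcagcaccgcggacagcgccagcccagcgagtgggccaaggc
Lhx4: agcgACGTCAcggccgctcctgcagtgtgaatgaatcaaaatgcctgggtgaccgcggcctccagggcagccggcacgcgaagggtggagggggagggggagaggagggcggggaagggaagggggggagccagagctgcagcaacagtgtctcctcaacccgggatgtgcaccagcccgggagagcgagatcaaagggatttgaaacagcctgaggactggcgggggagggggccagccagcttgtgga
TGACGT was present before the start used for 4 of the 5 members, Isl1, Isl2, Lhx1 and Lhx4, and in neither window of Lhx3. In Isl2 the match on one strand overlaps that on the other, as TGACGTCA, which begins 11 bases before the start. Over all 32851 windows of the same length in the table, 6.47% held it, and by gene 7.29% of 27025. The motif was chosen after these sequences were seen, and the members' windows are GC-rich, at 62.0% to 71.2% against a median of 52.4%. TAATTA, the core that homeodomain proteins commonly bind, was in no window of a member and in 4.84% of all windows. CANNTG, the E-box of neurogenic factors, was in 66.2% of all windows, and among the members in those of Isl1 and in the second window of Lhx3. These matches describe letters only.

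The 6 arrays differed in brightness. The 75th percentile of the processed signal lay between 48.5 and 64.5 intensity units on both WT-labelled GFP-on arrays and on mutant-labelled GFP-on replicate 1, and between 340 and 550 on mutant-labelled GFP-on replicate 2 and both GFP-off arrays. Between 41.0% and 62.3% of spots were above background, and none was saturated. Over the 10188 genes above background on all 6 arrays, WT-labelled GFP-on replicate 2 correlated with the other arrays at r of 0.711 to 0.798, except with its own replicate at 0.926. All arrays were on a single slide, where both mutant-labelled GFP-on arrays lay in one row and the other 4 arrays in the other, so slide row and genotype label cannot be told apart among the GFP-on arrays. The probe for Mir17hg, the host transcript of the cluster, was brighter on each mutant-labelled array than on the WT-labelled array or arrays of the same fraction (the log2 levels were 4.55, 4.78 and 4.62 on the mutant-labelled arrays and 2.73 and -1.23 on WT-labelled GFP-on replicate 2 and WT-labelled GFP-off, with WT-labelled GFP-on replicate 1 not above background). Whether the probe lies inside the deleted part is not known, so it checks nothing, and genotypes are named as labelled.

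Levels below are log2 values relative to each array's 75th percentile, so a level of 0 is the 75th percentile of that array. The probes of the 5 members were above background on all 6 arrays. Levels of different probes are not set against each other. Tests were made with limma over 14918 genes, and a gene was called where the Benjamini-Hochberg adjusted p was under 0.05.

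**Figure D1:**
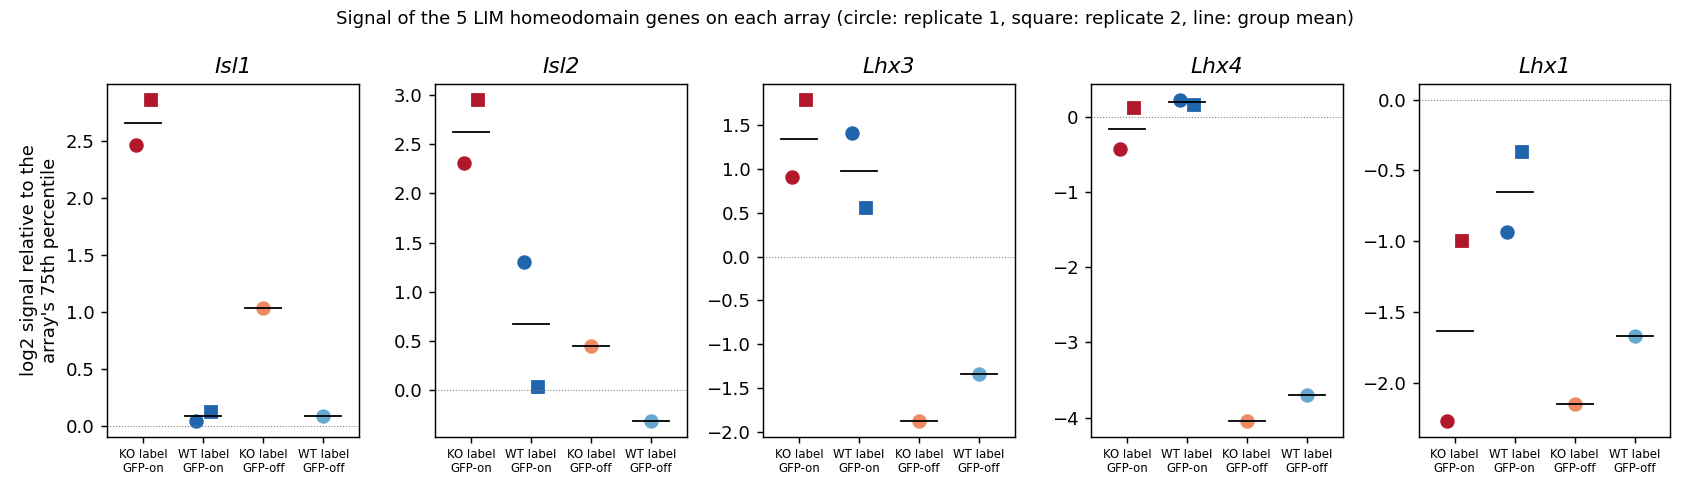
Log2 level of each member relative to the 75th percentile of its array (vertical axis) on the 6 arrays, 1 point per array, with a line at each group mean, circles for replicate 1 and squares for replicate 2 (KO, mutant-labelled). Lhx3 and Lhx4 are lowest on both GFP-off arrays, and Isl1 and Isl2 are highest on both mutant-labelled GFP-on arrays.

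Between the sorted fractions, Lhx3 and Lhx4 were the members that differed. Both were higher in GFP-on than in GFP-off cells whichever genotype label was taken, Lhx4 by 14.8-fold and Lhx3 by 6.85-fold. No difference was called for Isl1, Isl2 or Lhx1. The comparison asks which members mark the cells sorted as motor neurons, and its estimate was adjusted for genotype label (4 GFP-on arrays against 2 GFP-off arrays).

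Lhx4, the close relative of Lhx3, stood at -0.43 and 0.12 on mutant-labelled GFP-on replicates 1 and 2 and at 0.22 and 0.15 on the WT-labelled pair. Its levels in GFP-off cells were -4.04 under the mutant label and -3.70 under the WT label. All 4 GFP-on arrays were above both GFP-off arrays, and the lowest of them was 3.27 above the higher GFP-off array. The difference was 3.88 ± 0.41 (log2, SE; 95% interval 2.96 to 4.80; adjusted p = 0.00940). By size it ranked 30 and by p it ranked 9 among the 14918 genes. In scanner units the median signal of the Lhx4 probe was 74 and 64 on the GFP-off arrays, over a local background of 30 and 24, and 653.5 on mutant-labelled GFP-on replicate 2, which is of like brightness overall. On the 3 dimmer GFP-on arrays it was 78, 102 and 116.5.

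Lhx3, which marks newly born motor neurons, the medial motor column and V2 interneurons, stood at 0.90 and 1.79 on the mutant-labelled GFP-on arrays and at 1.41 and 0.55 on the WT-labelled ones. In GFP-off cells it was at -1.87 under the mutant label and at -1.35 under the WT label. Here too the fractions did not overlap, with a gap of 1.90 between the lowest GFP-on and the highest GFP-off array. The difference was 2.78 ± 0.49 (log2, SE; 95% interval 1.67 to 3.88; adjusted p = 0.0315).

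Of the 5 members, 2 were therefore called between the fractions, both higher in GFP-on cells, beside 2.29% of all genes called in either direction, 1.54% called higher and 0.751% called lower. The same 2 were the members whose fractions did not overlap, which held for 27.7% of all genes and, with GFP-on higher, for 10.9% (16.8% with GFP-on lower). A gap of over 2-fold between the lowest GFP-on and the highest GFP-off array was present in 2.5% of genes. The median difference of the 5 was 1.58, and that of all genes was -0.21.

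Rank within an array needs no scaling between arrays, and it gave the same picture for this pair. The Lhx4 probe lay between the 72.2 and 76.5 percentiles of all probes on the GFP-on arrays and at the 45.1 and 45.7 percentiles on the GFP-off arrays. The Lhx3 probe lay between the 79.2 and 84.9 percentiles on the GFP-on arrays and at 62.2 and 65.0 on the GFP-off arrays.

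**Figure D2:**
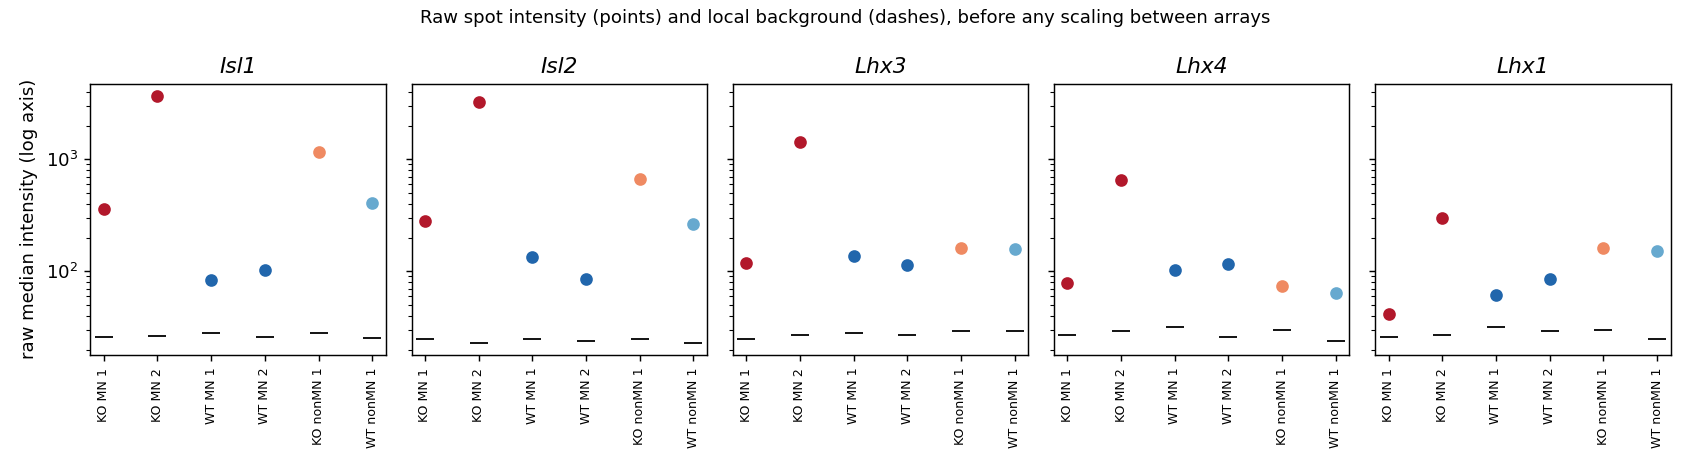
Median scanner signal of each member's probe before any scaling (vertical axis, log scale, intensity units) on the 6 arrays, as points, with the local background as dashes. The Lhx4 signal on the GFP-off arrays, 74 and 64, is below that on every GFP-on array, although the GFP-off arrays are bright overall.

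Taken within each genotype label, the Lhx4 difference was 3.88 under the mutant label (adjusted p = 0.116) and 3.89 under the WT label (adjusted p = 0.0198), and that of Lhx3 was 3.22 (adjusted p = 0.136) and 2.33 (adjusted p = 0.0711). Under the WT label 5.85% of genes were called, 1.49% higher and 4.36% lower in GFP-on cells. Under the mutant label limma called 0 genes, with 1416 at an unadjusted p under 0.05. The difference between the labels was tested as an interaction, where limma likewise called 0 genes (1430 at an unadjusted p under 0.05). For Lhx4 it was -0.01 ± 0.83 (SE, adjusted p = 0.998) and for Lhx3 0.89 ± 0.95 (SE, adjusted p = 0.833). With errors of this size, a difference of several-fold between the labels would not have been detectable.

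Across 17 alternatives the difference between the fractions ran from 2.04 to 3.40 for Lhx3 and from 2.51 to 4.06 for Lhx4, lowest in both cases with normexp background correction, but the calls did not hold in all of them. Quantile normalization ended both (adjusted p = 0.0764 for Lhx3 and 0.0615 for Lhx4), as did testing without a filter on dim probes (0.0800 and 0.0536), leaving out WT-labelled GFP-on replicate 1 (0.127 and 0.0912) and leaving out the WT-labelled GFP-off array (0.136 and 0.116), and the Lhx3 call was also lost without mutant-labelled GFP-on replicate 1 (0.0895) and without the mutant-labelled GFP-off array (0.0711). On the 3 bright arrays alone the differences were 3.40 for Lhx3 and 3.98 for Lhx4, but the only GFP-on array there is mutant-labelled, so fraction and label are mixed. With the tag as a block the calls held, at 2.77 (adjusted p = 0.0181) and 3.76 (adjusted p = 0.0108), among 1025 genes called in place of 342.

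For Isl1 and Isl2 the fractions overlapped. The Isl1 difference was 0.81 ± 0.48 (log2, SE; 95% interval -0.29 to 1.90; adjusted p = 0.351) and that of Isl2 was 1.58 ± 0.53 (0.38 to 2.78; adjusted p = 0.141). The GFP-on arrays of the 2 labels stood apart for both genes. Within the mutant label GFP-on exceeded GFP-off by 1.62 for Isl1 (adjusted p = 0.374) and by 2.18 for Isl2 (adjusted p = 0.307). Within the WT label the Isl1 difference was -0.01 (adjusted p = 0.996) and that of Isl2 0.98 (adjusted p = 0.403). The interaction was 1.63 ± 0.82 for Isl1 (SE, adjusted p = 0.563) and 1.20 ± 0.997 for Isl2 (SE, adjusted p = 0.764), so a dependence on the label was not shown for either.

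Lhx1, made by lateral motor column cells and by inhibitory interneurons, stood at -2.27, -0.997, -0.93 and -0.37 on the GFP-on arrays (mutant-labelled replicates 1 and 2, then WT-labelled replicates 1 and 2). In GFP-off cells it was at -2.15 under the mutant label and at -1.67 under the WT label. Mutant-labelled GFP-on replicate 1 was the lowest of the 6, below both GFP-off arrays, and the other 3 GFP-on arrays were above them. By rank within the array its probe lay between the 59.3 and 71.9 percentiles on the GFP-on arrays and at 60.2 and 62.5 on the GFP-off arrays, so the fractions overlapped on that measure too. The difference was 0.77 ± 0.49 (log2, SE; 95% interval -0.35 to 1.88; adjusted p = 0.381).

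Between the genotype labels within GFP-on cells, the members that differed were Isl1 and Isl2. Isl1 was 5.95-fold and Isl2 3.91-fold higher in mutant-labelled than in WT-labelled motor neurons. Lhx1, Lhx3 and Lhx4 were not called. The comparison asks what the loss of mir-17~92 alters in motor neurons, with 2 arrays against 2.

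Isl1, needed for the survival and identity of motor neurons, stood at 2.46 and 2.86 on the mutant-labelled GFP-on arrays and at 0.05 and 0.12 on the WT-labelled ones. The groups did not overlap, and the WT-labelled pair was at the level of WT-labelled GFP-off cells, 0.09, and below mutant-labelled GFP-off cells, 1.04. The difference was 2.57 ± 0.47 (log2, SE; 95% interval 1.4997 to 3.65; adjusted p = 0.0105).

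Isl1 was printed as 10 spots of the same probe on each array, which gives its measuring error. The spots ran from 2.35 to 2.58 and from 2.69 to 2.94 on the mutant-labelled GFP-on arrays, and from -0.14 to 0.39 and from -0.08 to 0.32 on the WT-labelled ones. They ran from 0.90 to 1.11 on the mutant-labelled GFP-off array and from -0.08 to 0.16 on the WT-labelled one, where 9 of the 10 were free of outlier flags. No spot of a mutant-labelled array was as low as any spot of the WT-labelled array or arrays of the same fraction. The SD between spots was 0.0695 and 0.0683 on the mutant-labelled and 0.157 and 0.132 on the WT-labelled GFP-on arrays. The median SD of the 399 probes printed 10 times or more was 0.138 and 0.0664 on the same mutant-labelled arrays and 0.148 and 0.153 on the WT-labelled ones. Spots share an array and are not replicates of a condition.

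**Figure D3:**
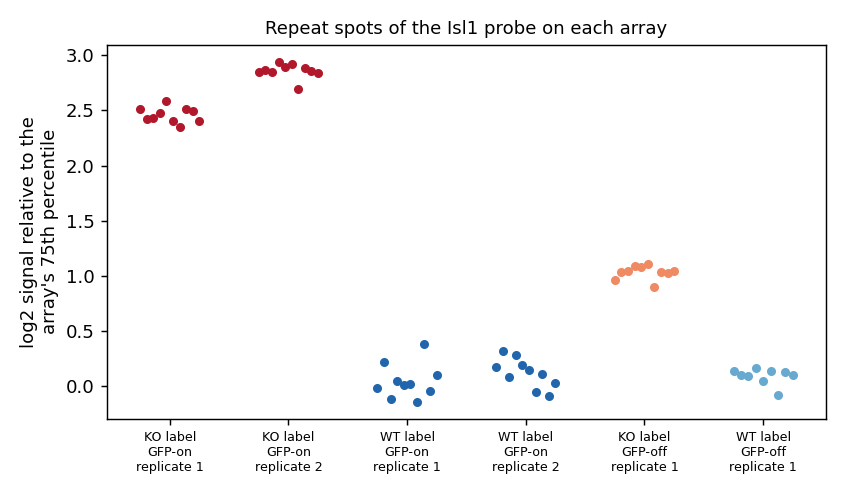
Log2 level of each of the 10 spots of the Isl1 probe relative to the 75th percentile of its array (vertical axis) on each of the 6 arrays, 1 point per spot without an outlier flag. The spots of both mutant-labelled GFP-on arrays lie between 2.35 and 2.94, above all spots of the other 4 arrays.

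Isl2, the close relative of Isl1, stood at 2.31 and 2.96 on the mutant-labelled GFP-on arrays and at 1.30 and 0.02 on the WT-labelled ones. In GFP-off cells it was at 0.45 under the mutant label and at -0.32 under the WT label. The GFP-on groups did not overlap, but the WT-labelled replicates were further from each other than the mutant-labelled ones. The difference was 1.97 ± 0.58 (log2, SE; 95% interval 0.66 to 3.28; adjusted p = 0.0405).

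Lhx3 overlapped between the labels, with a difference of 0.37 ± 0.55 (log2, SE; 95% interval -0.88 to 1.61; adjusted p = 0.654). Lhx4 was lower on both mutant-labelled than on both WT-labelled GFP-on arrays, with a difference of -0.35 ± 0.48 (-1.44 to 0.74; adjusted p = 0.626). Lhx1 was also lower on both mutant-labelled arrays, and its difference was -0.98 ± 0.57 (-2.27 to 0.32; adjusted p = 0.238). The intervals hold changes of over 2-fold downward for Lhx1 and Lhx4 and upward for Lhx3, so a change of that size was not excluded for these genes. Subtracting each array's median in place of its 75th percentile moved the median of all genes from 0.34 to 0.98 and every label difference by the same amount, and Lhx4 then stood at 0.29.

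Thus 2 of the 5 members were called, both higher under the mutant label, beside 23% of all genes called in either direction, 15.8% called higher and 7.24% called lower. A call in this comparison was common among all genes. The labels did not overlap for 4 of the 5 members, 2 in each direction, and for 67.3% of all genes (41.3% higher and 26% lower). The median difference of the 5 members was 0.37 and that of all genes 0.34. The WT-labelled GFP-on arrays were both dim and lay in another slide row than the mutant-labelled ones, and the part of either in these differences was not tested.

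The Isl1 probe lay at the 89.2 and 90.2 percentiles of all probes on the mutant-labelled GFP-on arrays and at 75.3 and 76.0 on the WT-labelled ones. Isl2 lay at 88.4 and 90.6 against 83.3 and 75.2. On this measure too both mutant-labelled arrays had Isl1 and Isl2 above both WT-labelled arrays. In scanner units, the dim mutant-labelled replicate 1 had a median signal of 358 for Isl1, against 82.8 and 103 on the WT-labelled arrays of like brightness, and of 281.5 for Isl2 against 134 and 85.

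The Isl1 call was lost without mutant-labelled GFP-on replicate 2 (difference 2.37, adjusted p = 0.0898), without a filter on dim probes (adjusted p = 0.0734) and in the additive model that includes the GFP-off arrays (2.03, adjusted p = 0.0916). The Isl2 call was lost under those settings (adjusted p = 0.3003, 0.139 and 0.0971), with quantile normalization (0.0935), without mutant-labelled replicate 1 (0.0651) and without WT-labelled replicate 2, where the difference was 1.33 (0.0642).

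In GFP-off cells there was 1 array per label, so the values have no replicate check. Mutant-labelled minus WT-labelled was 0.94 for Isl1 and 0.77 for Isl2, and it was -0.48 for Lhx1, -0.53 for Lhx3 and -0.34 for Lhx4. The median over all genes was 0.09, and 6.54% of genes were over 2-fold apart between these arrays. None of the 5 members was. In GFP-on cells the median gap between replicates was 0.38 under the mutant label and 0.67 under the WT label.

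**Figure D4:**
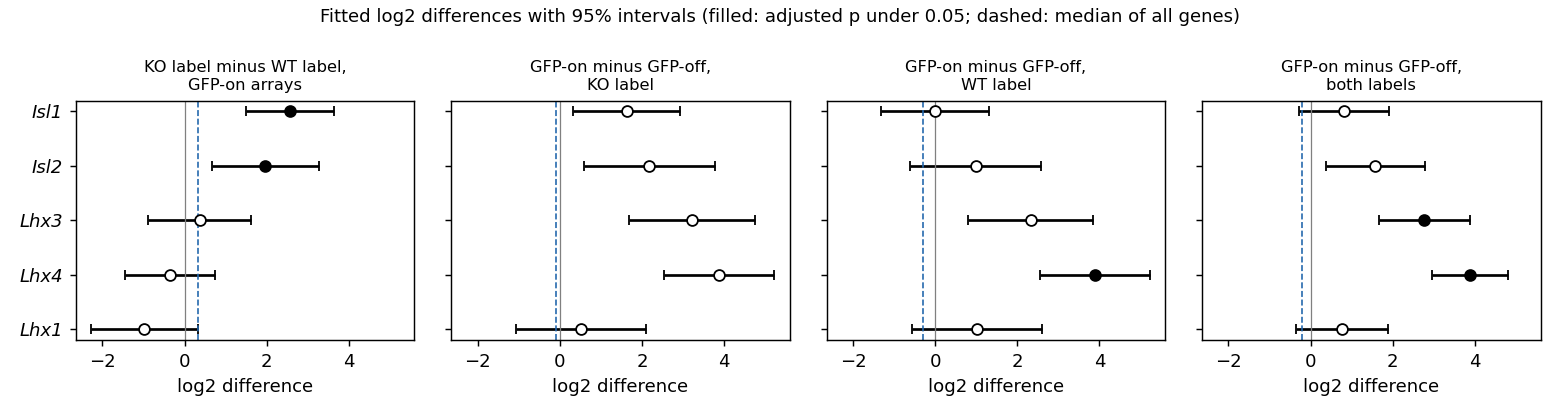
Log2 difference of each member (horizontal axis) with its 95% interval from limma, 1 panel for mutant-labelled minus WT-labelled GFP-on cells and 3 for GFP-on minus GFP-off (within each label and over both), with filled points where the adjusted p was under 0.05 and a dashed line at the median of all genes. The intervals of Lhx3 and Lhx4 are above 0 for the fractions in all 3 panels, and those of Isl1 and Isl2 for the genotype labels.

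Ordered by group mean, Isl1 and Isl2 were highest in mutant-labelled GFP-on cells. For Isl1 the next was mutant-labelled GFP-off, and the WT-labelled fractions came last, less than 0.01 apart. For Isl2 the order was mutant-labelled GFP-on, WT-labelled GFP-on, mutant-labelled GFP-off and WT-labelled GFP-off, and the last 3 were not called different from each other where tested. Lhx3 and Lhx4 had both GFP-on groups above both GFP-off groups, and the GFP-on groups were not shown to differ from each other. For Lhx1 the order was WT-labelled GFP-on, mutant-labelled GFP-on, WT-labelled GFP-off and mutant-labelled GFP-off, and no pair of groups that was tested was called different.

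Across the 6 arrays the profiles of Lhx3 and Lhx4 correlated at r = 0.961 and those of Isl1 and Isl2 at r = 0.872. These are descriptions over 6 points that share a slide and differ in brightness. By the same measure over the 10188 genes above background on all arrays, the genes most like Isl1 were Cep170 (r = 0.993), Dnaja2 (0.983) and Rassf2 (0.982), and those most like Isl2 were Nsg1 (0.993), Hrk (0.992) and Hectd3 (0.991). Lhx3 was followed most closely by Ndrg4 (0.998), Sobp (0.996) and Trp53inp2 (0.994), Lhx4 by Asic4, Nrxn3 (0.998) and Dennd1c (0.998), and Lhx1 by Rfng (0.988), G630025P09Rik (0.983) and Calm3 (0.977). The number of genes over r of 0.95 was 230 for Lhx4, 164 for Lhx3, 99 for Isl2, 39 for Isl1 and 12 for Lhx1.

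Among the other LIM homeodomain genes, all 7 were tested. Lhx2, a marker of dorsal commissural neurons, was the one that rose in both comparisons, by 1.93 ± 0.48 (log2, SE) under the mutant label (adjusted p = 0.0241) and by 2.004 ± 0.403 in GFP-on cells (adjusted p = 0.0449). Lhx6 fell by 3.24 (adjusted p = 0.0181) and Lmx1b, which marks dorsal dI5 and serotonergic neurons, fell by 2.16 (adjusted p = 0.0250) under the mutant label, and the other probe of Lmx1b gave -2.79. By the brightest of its 3 probes alone, Lhx6 stood at 5.87 and 3.67 on the mutant-labelled GFP-on arrays. On the WT-labelled ones it stood at 7.63 and 8.40. Lhx8 was called lower in GFP-on cells (adjusted p = 0.0195), but its probe was above background on 1 of the 4 GFP-on arrays, so the size of the difference was not measured. Lhx5, a partner of Lhx1 in inhibitory interneurons, gave 0.09 between the labels (adjusted p = 0.909) and 0.96 between the fractions (adjusted p = 0.239). The counts were thus 1 higher and 2 lower for the label and 1 higher and 1 lower for the fraction, with medians of 0.09 and 0.96. Beside this list and those below, the shares called over all genes were 15.8% higher and 7.24% lower for the label. For the fraction they were 1.54% higher and 0.751% lower.

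The LIM cofactors and LIM-only genes make proteins that bind the LIM domains of the members or their adaptor. Of 10, by the probe that stood for each, 1 was higher under the mutant label and none was lower. Between the fractions 0 were called by limma. The one called for the label was Lmo3, a LIM-only protein, not well above background on either WT-labelled GFP-on array. It was at least 5.34-fold higher on the mutant-labelled ones (adjusted p = 0.00951). This bound is the mean of the brighter group over the detection floor of the dimmer one. Ldb1, the adaptor of the Isl1 and Lhx3 complex, gave 0.98 (adjusted p = 0.167) and -0.74 (adjusted p = 0.351) for label and fraction. Lmo4, a LIM-only protein that binds Ldb1, gave 0.88 (adjusted p = 0.2499) and -0.02 (adjusted p = 0.985). Its other probe, tested on its own by limma, gave 2.01 for the label (adjusted p = 0.0253). Ssbp2 gave -0.51 for the label (adjusted p = 0.464). Its other probes, tested in the same way, gave -2.04 (adjusted p = 0.0340) and 0.43 (adjusted p = 0.585).

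Of 13 regulators that act before the members in the making of motor neurons, 10 were tested. Olig1, a factor of motor neuron and oligodendrocyte progenitors, was at least 1.3-fold higher under the mutant label (fitted difference 2.39, adjusted p = 0.0125). Sox1, a progenitor factor, fell by 2.37 (adjusted p = 0.0203), while its other probe gave -0.58. The probe that stood for Neurod1 gave 0.64 for the label (adjusted p = 0.471). The other Neurod1 probe, tested on its own by limma, gave 2.57 (adjusted p = 0.0154). Between the fractions 0 of the 10 were called, with a median of 1.26. Olig2, Nkx6-2 and Neurod4 were above background on mutant-labelled GFP-on replicate 2 alone and were not tested.

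The cholinergic genes, reported as targets of the Isl1 and Lhx3 complex, were split between the comparisons. Chat, which makes acetylcholine, and Slc18a3, which loads it into vesicles, were higher in GFP-on cells, by 3.17 ± 0.43 (log2, SE; adjusted p = 0.0175) and 3.48 ± 0.43 (adjusted p = 0.0158), as Lhx3 and Lhx4 were. Between the labels they gave -0.34 (adjusted p = 0.650) and 0.47 (adjusted p = 0.522). Slc5a7, the choline transporter, and Slc10a4 were called higher under the mutant label, at least 2.32-fold and at least 3.3-fold (adjusted p = 0.0122 and 0.00836), and the other probe of Slc5a7 gave 0.51. By the probe that stood for each gene, 2 of the 6 were called in each comparison, none of them lower. Over all genes 23% were called between the labels (15.8% higher) and 2.29% between the fractions (1.54% higher). The probe that stood for Acly gave 1.01 for the label (adjusted p = 0.197). Its other probe, tested on its own by limma, gave -2.31 (adjusted p = 0.0285). Motor column genes had 1 of 10 called in each by the same choice of probe. They were Zeb2 for the label (1.59, adjusted p = 0.0425, with 0.32 from its other probe) and Pou3f1 for the fraction (2.43, adjusted p = 0.0371). Tested on their own for the label, another probe of Foxp1 was called lower (-2.16, adjusted p = 0.0389) and another of Etv4 higher (2.35, adjusted p = 0.0403). Neither of these probes was above background on all 4 GFP-on arrays.

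**Figure D5:**
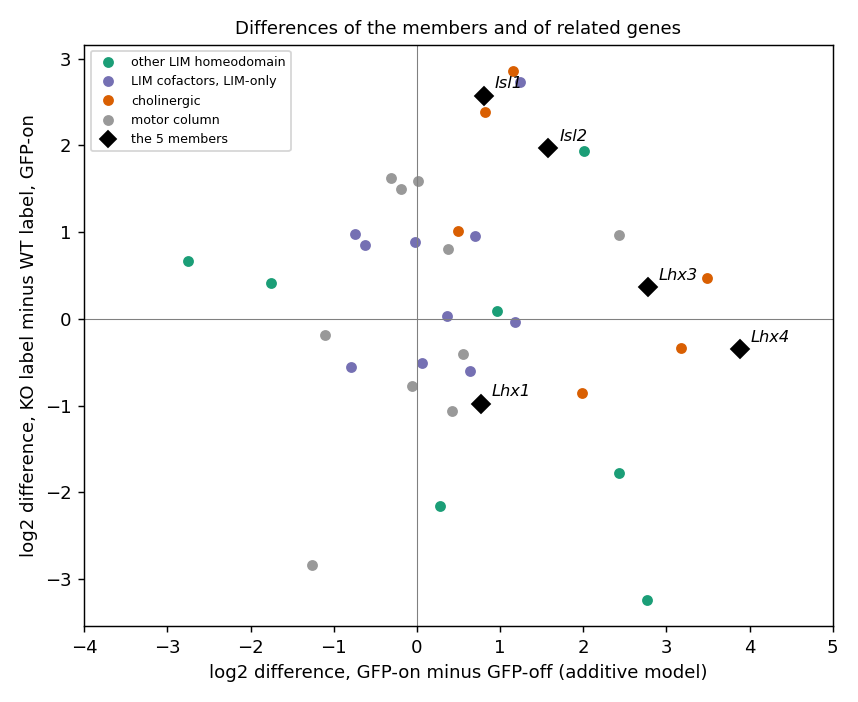
Log2 difference between the fractions (horizontal axis, GFP-on minus GFP-off) against that between the genotype labels in GFP-on cells (vertical axis, mutant-labelled minus WT-labelled), 1 point per tested gene of 4 lists (other LIM homeodomain, LIM cofactors and LIM-only, cholinergic, motor column), with the members as black diamonds. Lhx3 and Lhx4 lie to the right near 0 on the vertical axis, and Isl1 lies highest among the 5 members.

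The labelled cell type was checked against other motor neuron markers. Mnx1, whose promoter drives the transgene, had no matched probe. Of 7 other markers tested, Slc18a3, Chat and the neurofilament gene Nefl (2.50, adjusted p = 0.0282) were called higher in GFP-on cells and none lower. Within the WT label the fitted differences were 3.39 for Chat, 3.22 for Slc18a3, 2.05 for Nefl, 1.69 for Ret and 0.11 for Prph. They were 0.40 for Slc5a7 and -0.52 for Slc10a4, which were not above background on either WT-labelled GFP-on array. The summed level of the 7, relative to the 75th percentile, was 85.0 and 91.5 on the mutant-labelled GFP-on arrays, 40.0 and 34.1 on the WT-labelled ones and 10.1 and 9.13 on the GFP-off arrays. In this sum and those below the brightest probes weigh most, here that of Nefl. Its log2 levels were 5.97 and 6.10 on the mutant-labelled and 5.08 and 4.93 on the WT-labelled GFP-on arrays. Nefl was not called between the labels (adjusted p = 0.139). In the label comparison 3 of the 7 were called higher, beside 15.8% of all genes. They were Slc5a7, Slc10a4 and Prph, a motor neuron filament gene (4.44, adjusted p = 0.00542).

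Markers of other cells that make a member moved with the groups as well, and their part in the members' differences was not tested. V2 interneurons make Lhx3 and Lhx4, and of 8 V2 markers tested the 2 called between the fractions were Lhx3 and Lhx4 themselves. Sox14 fell under the mutant label (-3.15, adjusted p = 0.00976, above background on 1 of the 2 mutant-labelled arrays), and Vsx1 was above background on no array. The summed level of the 6 V2 markers that are not members was 7.66 and 8.13 on the mutant-labelled GFP-on arrays, 5.56 and 4.998 on the WT-labelled ones, and 2.86 and 2.72 on the GFP-off arrays.

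Of 9 markers of interneurons that make Lhx1, not all of them inhibitory, Evx1 (3.84, adjusted p = 0.0195) and Pax8 (2.67, adjusted p = 0.0237) were higher in GFP-on cells. Between the labels Gad1 rose by 2.69 (adjusted p = 0.0131) and Pax2 fell by 2.49 (adjusted p = 0.0115). En1 gave -0.36 between the labels (adjusted p = 0.5996) and 0.32 between the fractions (adjusted p = 0.654), and it was above background on 2 of the 6 arrays. The sum ran from 46.0 to 61.0 over the GFP-on arrays of both labels and was 14.4 and 20.9 on the GFP-off arrays.

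Of 5 markers of dI3 interneurons and sensory neurons, which make Isl1, none was called between the fractions. Between the labels Runx1 and Runx3 were called lower under the mutant label (-1.78 and -1.87, adjusted p = 0.0346 and 0.0427). Neither probe was above background on mutant-labelled GFP-on replicate 1. The other probe of each gene, tested on its own by limma, went the other way. It gave 1.31 for Runx1 (adjusted p = 0.110) and 2.02 for Runx3 (adjusted p = 0.0274, called higher). Neither of these was above background on either WT-labelled GFP-on array, so the sizes were not measured, and the direction for both genes depends on the probe. Pou4f1 gave 0.59 between the labels (adjusted p = 0.397) and 1.52 between the fractions (adjusted p = 0.0965). The sum was 13.8 and 18.2 on the mutant-labelled GFP-on arrays, 9.37 and 11.3 on the WT-labelled ones, and 4.45 and 5.22 on the GFP-off arrays.

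Of 8 microglial genes 6 were higher under the mutant label, beside 15.8% of all genes, and 0 were called between the fractions. Mrc1 and Tyrobp were among the 6, by at least 9.35-fold and 12.2-fold. The sum of the 8 was 23.8 and 26.1 on the mutant-labelled GFP-on arrays against 7.70 and 12.2 on the WT-labelled ones. Of 7 red cell genes, 6 were lower in GFP-on than in GFP-off cells, beside 0.751% of all genes, with Hbb-b2 at -4.50 (adjusted p = 0.0158). Under the mutant label 2 of the 7 were higher. Of 7 progenitor genes, Fabp7 (2.98, adjusted p = 0.00814) and Sox2 (2.17, adjusted p = 0.0155) rose and Notch1 fell by 2.03 (adjusted p = 0.0297) under the mutant label, with 0 called between the fractions. Neither of the 2 floor plate genes tested was called by the probe that stood for it. For Ntn1 that probe gave 1.67 for the label (adjusted p = 0.0710). Its other probe, tested on its own by limma, gave -2.80 (adjusted p = 0.0148).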

How the data were processed

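RNA of 6 sorted samples was hybridised to Agilent one-colour arrays with Cy3, per the labels' protocols. The deposited scanner files give an intensity per spot (median, background and processed signal), made with Feature Extraction 10.5.1.1 per the file headers (version 9.1 per the submitters' processing notes), and other columns that flag spots above background, saturated or outlying. The authors' deposited value table holds log2 signals relative to the 75th percentile and matched the values computed here within 0.01 for 100% of entries. Its scale and centring were found by that match.

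Spots of a probe were averaged without outlier flags, control spots were left out, and the 75th percentile of each array was subtracted on the log2 scale. The files hold no gene names: probes were named by RefSeq accession (26300 named, 29381 not). A probe was kept when above background on at least 2 of 6 arrays, and the probe with the highest mean stood for its gene. Groups come from the labels. Tests used limma 3.58.1 in R 4.3.3 (lmFit, eBayes), Benjamini-Hochberg adjusted at 0.05, with 4 group means, or an additive model for the fractions. A single GFP-off array is assumed to vary like the others. An exact two-sided permutation test of 2 arrays against 2 cannot go below 0.333, and none was run. The number of arrays limits the precision. The code was tested on simulated data.

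Alternatives were the scaling, background correction, filter, probe choice, value table, model, blocks and left-out arrays. The normexp alternative used the median signal in place of the mean.

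Named genes are the members, the 3 genes most like each, the called genes of each list (at most 4 per list and comparison) and Mnx1, Chat, Lhx5, Lmx1b, Ldb1, Lmo4, Olig2, En1, Pax2 and Pou4f1 whatever their values. Some genes of the marker lists that the rule would name are not reported here. The members and lists were chosen with earlier results of these data known.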

Additional observations from a re-analysis of the deposited data

Results flagged for a closer look

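Among the 4 GFP-on arrays, the Lhx4 level of mutant-labelled replicate 1 was far below the others for the size of the group. It stood at -0.43 where the other 3 lay between 0.12 and 0.22, and its gap to the nearest was 0.834 of the whole range, just past the 95% critical value of Dixon's test for 4 samples. Chance alone marks about 5% of groups, and 5 genes were looked at. The array was 3.27 above the higher GFP-off array.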

How the results depend on the processing

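Between the genotype labels 3434 genes were called (2354 higher, 1080 lower). With the array median subtracted the count was 5164 (4633 higher, 531 lower), with quantile normalization 1697 (1508, 189), with normexp 1399 (1122, 277), with every probe on its own 8257 (3524, 4733), and 0 by limma both without the filter (5043 at an unadjusted p under 0.05) and in the additive model (4662). Leaving out an array gave 905 to 7014 (2085 and 905 without mutant-labelled replicates 1 and 2, 7014 without WT-labelled replicate 1). The median of all genes was 0.34, and 0.98 after median scaling, where Lhx4 turned to 0.29. Isl1 was no longer called without the filter (2.57) and in the additive model (2.03), and ran from 2.37 to 2.77 with an array left out. Isl2 was no longer called with quantile normalization (1.86), without the filter (1.97) and in the additive model (1.57), and ran from 1.33 to 2.61, called in 1 of 4. Lhx3 ran from -0.076 to 0.81, below 0 without mutant-labelled replicate 2 or WT-labelled replicate 2.

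Between the fractions 342 genes were called. The count was 563 among genes above background on all 6 arrays, 1025 with the tag shared by GFP-on replicate 1 and the GFP-off array of each genotype as a block, 4066 in slide row 2 alone, and 0 by limma with quantile normalization (2919 at an unadjusted p under 0.05) and without the filter (5667). Leaving out an array gave 0 to 1102 (26 and 1102 without mutant-labelled GFP-on replicates 1 and 2, 0 without WT-labelled GFP-on replicate 1 or the WT-labelled GFP-off array, 873 without the mutant-labelled one). Lhx3 (2.73 and 2.78) and Lhx4 (3.77 and 3.88) were not called in those settings with 0 genes, and ran from 2.33 to 3.22, called in 2 of 6, and from 3.77 to 4.003, called in 4 of 6, with an array left out. Slide row 2 alone, the setting with 4066 genes called, holds only WT-labelled GFP-on arrays beside GFP-off arrays of both labels, so it mixes fraction with label. Isl1 turned to -0.48 there, and with an array left out it ran from -0.0066 (without the mutant-labelled GFP-off array) to 1.62. Isl2 was called on the 3 bright arrays alone (2.89, adjusted p = 0.0407), a setting chosen after seeing the data that mixes fraction with label, since its only GFP-on array is mutant-labelled.

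Within the mutant label the count of 0 became 185 with median scaling, 68 with normexp, 135 among genes above background on all arrays, 161 with the replicate block and 34 to 945 with an array left out. Under those settings Lhx3 was called at 3.28, 2.56, 3.22 and 3.21 (2.78 to 3.67 with an array left out) and Lhx4 at 3.93, 2.68, 3.88 and 3.76 (3.604 to 4.15). Isl2 ran from 1.86 to 2.51, called in 2 of 4, and Lhx1 from -0.12 to 1.15. Within the WT label 873 became 2120 with median scaling, 0 by limma with quantile normalization (3839 at an unadjusted p under 0.05) and without the filter (3910), and 1103 to 5189 with an array left out. There Lhx4 was not called at 3.92 and 3.89, Isl1 turned to 0.011 with quantile normalization and ran from -0.043 to 0.030, and Lhx3 was called at 2.33 among genes above background on all arrays and ran from 1.90 to 2.76. For the interaction, 0 became 79 with median scaling, 1 with normexp, 34 with the replicate block and 12 to 1472 with an array left out. Lhx4 turned to 0.37 and 0.34 in the first pair and ran from -0.29 to 0.26, and Lhx1 turned to 0.031 with normexp and ran from -1.14 to 0.13.

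The replicate numbers did not pair the samples (the deviations of same-numbered arrays correlated at -0.15). With them as a replicate block 3607 genes were called between the labels and 387 between the fractions, and the crossed pairing, chosen after seeing the data, gave 3479 higher and 1789 lower. Where an arm was left with 1 array, it was assumed to vary like the other groups. Dim signal over background on 3 of the GFP-on arrays limits low probes most, Lhx1 and Lhx4 among the members. The causes of these changes were not tested.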
